A study of Mus musculus with 12 samples.

Results

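The response of Hdh7/7 cells to transfection with an empty vector was examined in 4 of the 12 arrays of the series, 2 from empty vector cells and 2 from untransfected cells. Members were taken by the sample titles and not by any measured value. Hdh7/7 is an immortalised cell line from the striatum of a homozygous knock-in mouse whose huntingtin gene (Hdh, now Htt) has 7 CAG repeats, and it is the wild-type line of the study. The empty vector group (Hdh7/7, empty vector) received a vector, and the untransfected group (Hdh7/7, no transfection) was the control. The other arrays came from Hdh7/7 cells with a construct labelled DNRest and from the line Hdh109/109, homozygous for an allele with 109 repeats, in the same 3 states with 2 arrays each. All cells were grown in medium with fetal calf serum, and a protocol field describes them as untreated although titles and characteristics give the transfection. The labels name neither the vector nor the time after transfection, nor do they say whether transfection was transient or stable. With 1 line per genotype, repeat length and any other feature of a line cannot be told apart. Separate cultures for the arrays of a group are not stated, and p-values then measure only the spread between these samples, part of which may be technical.

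An empty vector is the plasmid backbone without its insert, and cells that received it are the usual control for an expressed construct. A transfected cell takes up foreign DNA together with the carrier, and may go through selection if the line is stable. Cytosolic DNA sensors such as cGAS signal through STING and the kinase TBK1 to IRF3 and type I interferon, which acts through its receptor on interferon-stimulated genes. Growth stimuli act on other programmes, among them immediate early transcription factors and the assembly of ribosomes in the nucleolus, which consumes much of a growing cell's RNA and protein synthesis.

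Expression was measured on Illumina bead arrays with 44505 probes, of which 15224 probes and 8487 genes were tested. Levels are log2 values after background correction and quantile normalization, and each gene stands for its brightest tested probe over the 12 arrays. A fold change is the mean of the 2 empty vector arrays minus that of the 2 untransfected arrays, given in log2 with its standard error from limma (n = 2 arrays a side throughout). A gene was called at an adjusted p under 0.05, with Benjamini-Hochberg adjustment over all probes. An exact permutation test of 2 arrays against 2 cannot go below p = 0.333, so all calls rest on the spread shared by the 6 groups.

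Empty vector replicate 2 stood apart from its partner. Its median bead signal before normalization was 161, against 76.8 on empty vector replicate 1 and 77.0 and 79.5 on the untransfected arrays. It detected 10295 probes, against 12759 on empty vector replicate 1 and 13500 and 13099 on the untransfected arrays. The lowest log2 level detected on it was 6.69, against 5.96 on its partner and 5.79 and 5.88 without transfection. The empty vector pair differed by an SD of 0.340 log2 over probes, against 0.189 for the untransfected pair and 0.175 to 0.249 for the other 4 groups. Its source name gives Hdh109/109, as do those of both Hdh7/7 DNRest arrays, and 6 of the 12 source names disagree with the titles. Over the probes tested the array correlated at r = 0.959 to 0.980 with the other 5 Hdh7/7 arrays and at r = 0.888 to 0.914 with the 6 Hdh109/109 arrays. Results that rest on this array are given with and without it.

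**Figure D1:**
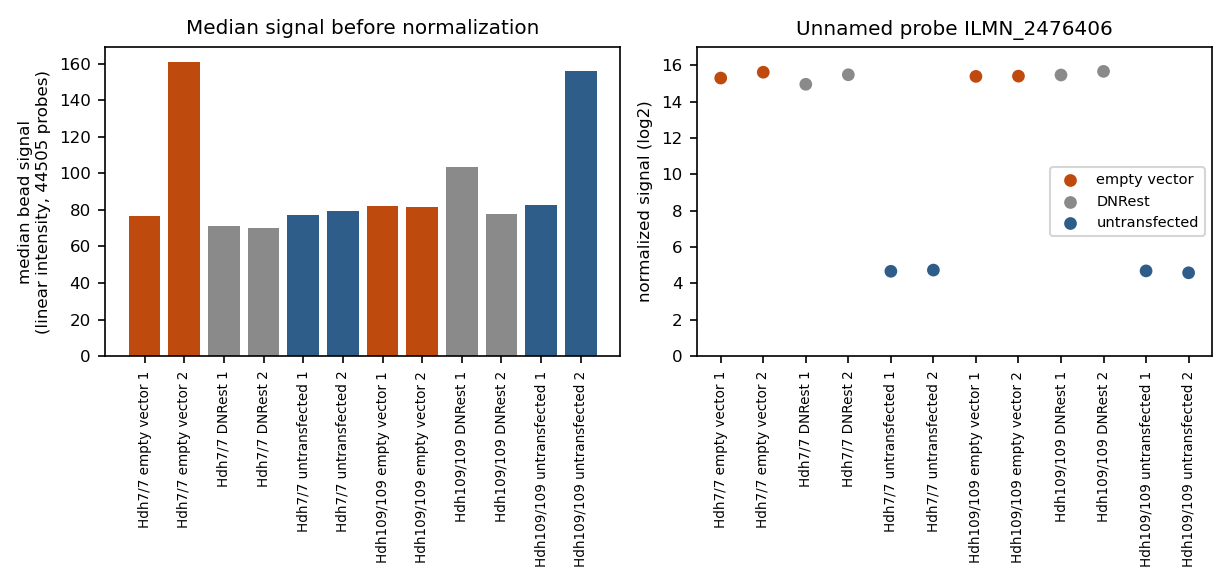
Median bead signal before normalization (left, bars, linear intensity over 44505 probes) and normalized log2 signal of the unnamed probe ILMN_2476406 (right, points) on each of the 12 arrays, in the order empty vector, DNRest and untransfected within each line. Hdh7/7 empty vector replicate 2 reached a median signal of 161, against 77.0 and 79.5 on the untransfected Hdh7/7 arrays, and the unnamed probe separated all 8 transfected arrays from the 4 untransfected arrays.

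A single probe separated transfected from untransfected arrays in both lines. Probe ILMN_2476406, for which no gene name is given here, had log2 levels of 15.29 and 15.61 with the empty vector in Hdh7/7 cells and 4.66 and 4.73 without transfection, where it was undetected. Its rise was at least 785-fold (adjusted p = 9.23e-10). The 8 transfected arrays of the series read 14.95 to 15.66, and the 4 untransfected arrays read 4.58 to 4.73, so the 2 states did not overlap. Its rise in Hdh109/109 cells was at least 697-fold.

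The gene that carries the repeat and the gene named in the DNRest construct gave little information. Htt read 6.88 and 6.47 with the empty vector, where 1 of the 2 arrays detected it, and 6.65 and 7.00 in untransfected cells, and the change was not called (log2 fold change -0.15 ± 0.19; adjusted p = 0.614). The probe for Rest, the repressor of neuronal genes outside the nervous system, read 4.96 and 4.53 with the empty vector and 4.71 and 4.49 without transfection. It was undetected on all 4 arrays and was not tested.

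Few defining markers of mature brain cells were detected in these cells. Of 11 striatal neuron markers on the array, 4 passed the detection filter, and Ppp1r1b, Drd1 and Drd2, which define striatal projection neurons, did not. Among these 4, Meis2, a homeobox transcription factor, fell (log2 fold change -0.61 ± 0.12), and the list's median was 0.02. Other probes of Meis2, at -0.62 and -0.54, were not called. Of 10 neural progenitor markers, 7 were tested. Prom1, a surface protein of stem cells, fell at least 1.33-fold, with levels of 5.10 and 4.97 with the empty vector, where it was undetected, and 6.72 and 6.76 in untransfected cells. The bHLH inhibitor Id4 fell as well (log2 fold change -1.06 ± 0.18). Sox2, Nes and Pax6 were not called, and the list's median was 0.15. No microglial marker of 6 on the array was tested, 1 astrocyte marker of 5 was tested and fell (the glutamate transporter Slc1a3, log2 fold change -1.75 ± 0.25), and 1 endothelial marker of 6 was tested and fell (the VEGF receptor Flt1, log2 fold change -0.71 ± 0.13). The 1 oligodendrocyte marker tested, Cnp, was not called. In bulk RNA, fewer cells of a type and less RNA per cell cannot be told apart.

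With the empty vector, 564 genes rose and 964 fell in Hdh7/7 cells, which is 6.65% and 11.4% of the genes tested and 18% in all. In probes, 945 rose (6.21%) and 1459 fell (9.58%), 15.8% of those tested in all. By fitted values, 297 fallen genes and 91 risen genes changed by more than 2-fold. Of the risen genes 26 were undetected on both untransfected arrays, and of the fallen genes 195 were undetected on both empty vector arrays. For such genes a fold is at most a bound. Among probes detected on all 12 arrays, 1190 rose and 1054 fell. The median log2 fold change over all genes was -0.05. All 2404 probes called had groups that did not overlap, as did 8842 of the 15224 probes tested.

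**Figure D2:**
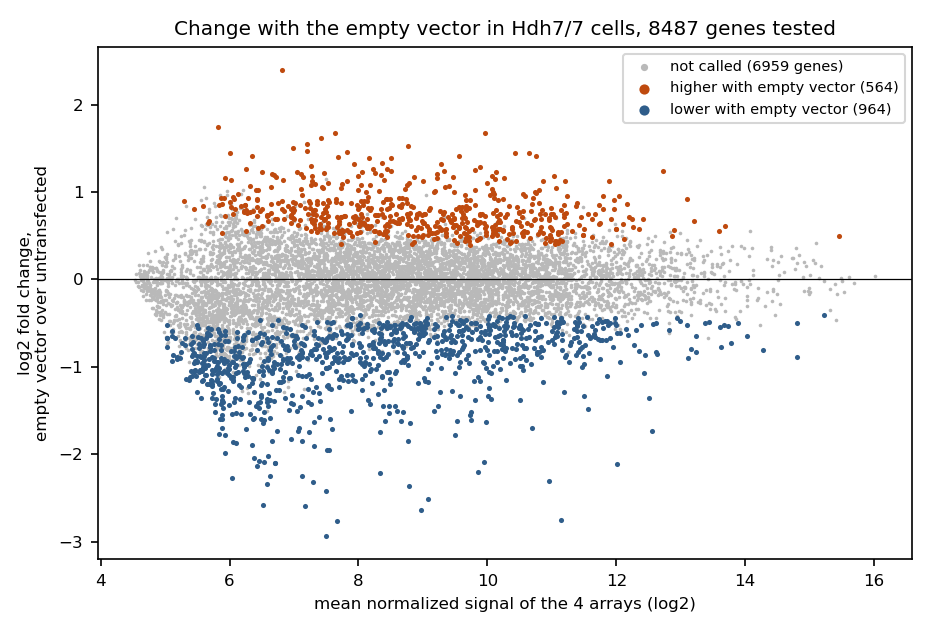
Log2 fold change, empty vector over untransfected, of the 8487 genes tested (y axis) against their mean log2 signal on the 4 Hdh7/7 arrays (x axis). The 564 genes called higher and the 964 called lower are coloured, and 297 of those called lower had a fitted fall of more than 2-fold.

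The size of this response depended on which arrays entered. Without empty vector replicate 2, 284 genes rose and 474 fell. Of these, 702 were called in the same direction as with all arrays and 0 in the opposite direction, and all 1528 genes called with all arrays kept the sign of their change. Leaving out 1 of the 4 arrays gave 728 to 3853 called probes. With these 4 arrays alone in the fit, limma called 1 probe, the unnamed one above, and 3654 had an unadjusted p under 0.05. With median scaling over all probes in place of quantile normalization, the median of the genes shifted to -0.50, and 52 probes rose and 3201 fell. The split of rises and falls thus moved with the scaling. The medians of gene groups below are to be read against the median of all genes as reported, -0.05.

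The largest rise was in S100a7a, a member of the S100 family of calcium-binding proteins. It read 7.99 and 8.03 on the empty vector arrays and 5.70 and 5.53 on the untransfected arrays, where it was undetected. The rise was at least 4.5-fold (adjusted p = 0.000102), and the 2 groups lay far apart relative to their own spread. Hdh7/7 cells with DNRest read 7.89 and 7.98, close to the empty vector arrays. Dusp4, a phosphatase that inactivates MAP kinases, read 8.32 and 8.62 with the empty vector and 6.83 and 6.77 without (log2 fold change 1.67 ± 0.16; adjusted p = 0.000398). The AP-1 subunit Fosl1 read 8.16 and 8.29 in transfected cells and 6.85 and 6.36 in untransfected cells (log2 fold change 1.62 ± 0.23; adjusted p = 0.00241). Both genes are targets and regulators of growth factor signalling through ERK, and in both the arrays of the 2 groups were separate. Upp1, uridine phosphorylase, reached 7.98 and 7.97 with the empty vector, against 6.27 and 6.58 in untransfected cells (log2 fold change 1.55 ± 0.23; adjusted p = 0.00301).

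Tfrc, the transferrin receptor that takes iron into the cell, read 10.91 and 11.38 with the empty vector and 9.79 and 9.62 without (log2 fold change 1.45 ± 0.20; adjusted p = 0.00191). Slc40a1, which encodes ferroportin, the cell's iron exporter, read 6.09 and 6.48 with the empty vector, where 1 array detected it, and 9.19 and 8.93 without (log2 fold change -2.77 ± 0.20; adjusted p = 0.000102). The importer was thus higher and the exporter lower on both empty vector arrays than on either untransfected array. These 2 genes were set side by side after their values were seen. DNRest arrays of the same line read 11.20 and 10.84 for Tfrc and 6.11 and 6.31 for Slc40a1.

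Other genes among the 12 largest rises were the non-coding RNA Dancr (log2 fold change 1.47 ± 0.18; adjusted p = 0.00111) and Rassf1, a Ras association domain protein (log2 fold change 1.44 ± 0.13; adjusted p = 0.000286), for which 2 of 3 probes were called higher and none lower. Klra22, a gene of the lectin-like Ly49 receptor family, rose as well (log2 fold change 1.45 ± 0.17). Rps15a (log2 fold change 1.50 ± 0.20) and Rpl29 (at least 2.34-fold) encode ribosomal proteins. The probes of Klra22, Rps15a and Rpl29 may read near-identical family members or processed copies, so these 3 identities are uncertain. Without untransfected replicate 2, Rpl29 was no longer called.

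**Figure D3:**
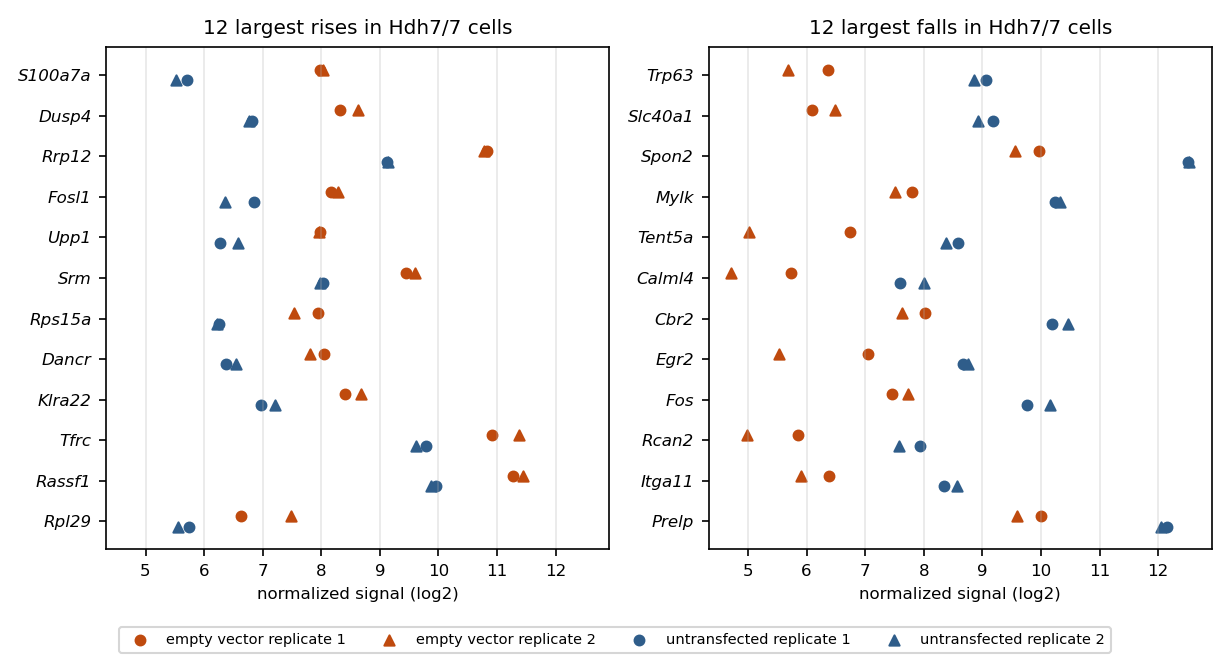
Normalized log2 signal of the 12 genes with the largest rises (left) and the 12 with the largest falls (right) on the 2 empty vector arrays and the 2 untransfected arrays of Hdh7/7 cells; circles are replicate 1 and triangles replicate 2. The groups did not overlap for any of the 24 genes, and empty vector replicate 2 read lower than replicate 1 for 10 of the 12 fallen genes.

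Genes for ribosome assembly rose together in Hdh7/7 cells. Ribosome biogenesis takes place mainly in the nucleolus, where RNA polymerase I makes the ribosomal RNA precursor and a large set of factors modify, cut and fold it. Of 61 such genes tested, 48 rose and 0 fell, with a median log2 fold change of 0.84, against 6.65% risen and a median of -0.05 over all genes. This list was drawn up after values had been seen, so its count is a description. Rrp12, which acts in pre-ribosome maturation and export, read 10.83 and 10.77 with the empty vector and 9.12 and 9.13 without (log2 fold change 1.67 ± 0.13; adjusted p = 0.000143). Rrp9, a component of the U3 snoRNP that processes the small subunit's RNA, read 8.78 and 9.26 in transfected cells and 7.66 and 7.73 in untransfected cells (log2 fold change 1.33 ± 0.17). The large subunit assembly factor Ppan reached 10.52 and 10.55 on the empty vector arrays, against 9.28 and 9.22 on the untransfected arrays (log2 fold change 1.28 ± 0.11). In all 3 genes both empty vector arrays lay above both untransfected arrays, and the empty vector pair was widest apart for Rrp9. Nop2, an rRNA methyltransferase, had 8.81 and 8.90 with the empty vector and 7.64 and 7.55 without (log2 fold change 1.26 ± 0.15; adjusted p = 0.000993), and 2 of its 2 probes were called.

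Called genes came from several steps of assembly. Box C/D and H/ACA guide RNP proteins were called, with Nop56 at 1.25, Nop58 at 0.80, fibrillarin (Fbl) at 0.87 and Gar1 at 0.95. RNA polymerase I subunits were also called, with Polr1b at 1.21, Polr1e at 1.03 and Polr1a at 0.78. The nucleolar proteins nucleolin (Ncl, 0.79), Nolc1 (0.84) and nucleostemin (Gnl3, 1.24) were higher too. Among the 13 genes not called, Rrp1 and Surf6 had negative values (-0.25 and -0.08) and the other 11 lay between 0.22 and 0.57. These examples were chosen after their values were seen. Leaving out any of the 4 arrays left 33 to 47 of the 61 genes called higher and 0 lower. With median scaling over all probes 3 were called, while the list's median of 0.36 lay 0.86 above that of all genes.

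Of 14 cytosolic ribosomal protein genes tested, 2 rose and 0 fell, against 6.65% of all genes risen, with a median of 0.17 (-0.06 with median scaling over all probes). The risen genes were Rps19 (7.22 and 7.02 with the empty vector, 5.69 and 6.09 without; log2 fold change 1.23 ± 0.19) and Rplp0 (log2 fold change 0.48 ± 0.14), and Rps19 was detected on 1 of the 2 untransfected arrays. Rplp0 was not called when any of the 4 arrays was left out. The difference between this list and the assembly factors was not tested. Ribosomal protein transcripts have many processed copies, and these probes may read some of them.

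Polyamine and one-carbon genes were higher as well. Polyamines bind RNA and are made in proliferating cells, and one-carbon units from serine feed nucleotide synthesis. Of 14 genes tested, 9 rose and 0 fell, with a median of 0.71, against 6.65% risen and a median of -0.05 over all genes, on a list that was also drawn up after values had been seen. With median scaling over all probes 1 was called, while the list's median of 0.31 lay 0.81 above that of all genes. Fewer of the 14 were called higher without empty vector replicate 2 or either untransfected array. Srm, spermidine synthase, read 9.45 and 9.61 with the empty vector and 8.04 and 7.97 without (log2 fold change 1.52 ± 0.14; adjusted p = 0.000357), and both of its probes were called. The reduced folate carrier Slc19a1 read 9.92 and 9.97 in transfected cells and 8.80 and 8.61 in untransfected cells (log2 fold change 1.24 ± 0.15). Serine hydroxymethyltransferases were higher in the cytosolic form Shmt1 (log2 fold change 1.22 ± 0.18) and the mitochondrial form Shmt2 (log2 fold change 1.08 ± 0.17). The serine synthesis genes Psat1 (log2 fold change 0.91 ± 0.13) and Phgdh (log2 fold change 0.59 ± 0.14) rose, and these 2 with Shmt2 were the 3 called genes of 22 on a list of ATF4 and endoplasmic reticulum stress genes, whose median was 0.05. Its stress genes Ddit3, Atf3 and Hspa5 were not called.

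Of 24 genes of DNA replication and mitosis tested, 4 rose and 0 fell, against 6.65% of all genes risen, with a median of 0.19, which was -0.31 with median scaling over all probes. Thymidine kinase Tk1 (log2 fold change 0.62 ± 0.16), cyclin E1 (Ccne1, log2 fold change 0.56 ± 0.15), the ribonucleotide reductase subunit Rrm2 (log2 fold change 0.52 ± 0.14) and the mitotic kinase Aurka (log2 fold change 0.44 ± 0.12) were the risen genes. Other probes of Tk1 (0.44 and -0.23) and of Rrm2 (0.61 and 0.50) were not called. Without empty vector replicate 2, without untransfected replicate 1 or without untransfected replicate 2, 0 of the 24 were called (limma). At an unadjusted p under 0.05 these fits gave 9, 6 and 9 genes.

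The promoter of Nop2 shows the E-box, a motif bound by MYC and related bHLH factors, in the 250 bases before its start (chr6:125131633-125131882, + strand). Promoter sequences are those of RefSeq on GRCm38.p6, with the motif in capitals.
Nop2: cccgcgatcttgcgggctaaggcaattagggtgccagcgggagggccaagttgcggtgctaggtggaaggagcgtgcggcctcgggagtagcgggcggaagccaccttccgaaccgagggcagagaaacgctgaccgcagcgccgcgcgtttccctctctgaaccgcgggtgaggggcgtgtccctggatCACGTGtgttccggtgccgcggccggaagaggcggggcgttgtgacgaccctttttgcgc
The letters CACGTG, which read the same on both strands, were found in 5.56% of 54 promoter windows of the ribosome biogenesis genes, in 10.6% of 593 windows of all risen genes, in 7.03% of 1010 windows of fallen genes and in 8.58% of 8936 windows of all genes tested. The windows came from 51 of the 61 ribosome biogenesis genes and from 6955 of the 8487 genes. A match describes the letters in this window only.

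Immediate early genes went in both directions. These genes are induced within minutes of a stimulus through serum response factor and ERK. Of 19 tested, 3 rose and 5 fell, against 6.65% and 11.4% of all genes, with a median of -0.08. Fos, the AP-1 subunit, read 7.46 and 7.74 with the empty vector and 9.76 and 10.16 without (log2 fold change -2.36 ± 0.21; adjusted p = 0.000287). Egr2, a zinc finger transcription factor, read 7.05 and 5.52 in transfected cells, detected on 1 array, and 8.67 and 8.75 in untransfected cells (log2 fold change -2.42 ± 0.42; adjusted p = 0.00546), and replicate 2 lay far below replicate 1. Its paralogue Egr1 was lower by less, with 12.87 and 12.78 on the empty vector arrays and 13.73 and 13.57 on the untransfected arrays (log2 fold change -0.83 ± 0.13; adjusted p = 0.00324). Fosl1 rose, as given above, so the AP-1 subunits Fos and Fosl1 changed in opposite directions. Junb, Jun and the serum response factor gene Srf were not called.

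CArG boxes, the sites of serum response factor, are described for Fos and Egr promoters. The windows searched here gave none for Fos. A window 250 bases long before a start of Egr2 (chr10:67537619-67537868, + strand) is printed to show its box in capitals, which begins 72 bases before that start.
Egr2: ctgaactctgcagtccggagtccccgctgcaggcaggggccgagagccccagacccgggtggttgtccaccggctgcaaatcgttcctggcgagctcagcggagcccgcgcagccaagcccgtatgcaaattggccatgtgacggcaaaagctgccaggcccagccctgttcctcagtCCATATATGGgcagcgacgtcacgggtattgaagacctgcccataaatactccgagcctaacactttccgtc
Of the 15 immediate early genes with a window, 3 had a CArG box, 20% of them, against 1.85% of fallen genes and 1.41% of all genes tested. The shares are of genes because Egr2 has 3 overlapping windows that hold this same box.

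The largest fitted fall was in Trp63, which encodes p63, a transcription factor of the p53 family that specifies epithelial progenitors. On empty vector replicate 2 Trp63 lay below the lowest level detected there, 6.69, so its rank is uncertain. It read 6.36 and 5.68 with the empty vector, detected on 1 array, and 9.06 and 8.85 without (log2 fold change -2.93 ± 0.22; adjusted p = 0.000143). Spon2, a secreted matrix protein, read 9.96 and 9.56 in transfected cells and 12.51 and 12.53 in untransfected cells (log2 fold change -2.76 ± 0.16; adjusted p = 6.51e-05). Mylk, the kinase that activates smooth muscle and non-muscle myosin, read 7.79 and 7.50 with the empty vector and 10.25 and 10.33 without (log2 fold change -2.64 ± 0.17; adjusted p = 0.000102), and both of its probes fell. For these 3 genes both empty vector arrays lay far below both untransfected arrays. DNRest arrays of the line read 5.75 and 6.17 for Trp63, 9.58 and 9.50 for Spon2 and 7.35 and 7.30 for Mylk.

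Some of the deepest falls were uneven between the empty vector arrays. Tent5a, a poly(A) polymerase of the TENT5 family, read 6.74 and 5.02 with the empty vector and 8.58 and 8.38 without (log2 fold change -2.60 ± 0.41; adjusted p = 0.00381). Calml4, a calmodulin-like gene, read 5.73 and 4.72 in transfected cells and 7.60 and 8.01 in untransfected cells, a fall of at least 2.78-fold. Rcan2, an inhibitor of calcineurin, read 5.86 and 4.98 with the empty vector and 7.94 and 7.57 without, a fall of at least 2.69-fold. In these 3 genes replicate 2, the array with high background, lay lowest. All 3 levels on it were below the lowest level detected there, 6.69. Cbr2, a carbonyl reductase, was more even, with 8.01 and 7.63 on the empty vector arrays and 10.19 and 10.47 on the untransfected arrays (log2 fold change -2.51 ± 0.20; adjusted p = 0.000176).

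Matrix genes fell broadly. Fibroblast-like cells secrete collagens, crosslink them with lysyl oxidases and bind them with integrins. Among 23 matrix and adhesion genes, 13 were called lower and 0 higher, with a median of -0.52, against 11.4% fallen and a median of -0.05 over all genes. Col6a1, a chain of the beaded-filament collagen VI, read 9.81 and 9.89 with the empty vector and 11.53 and 11.56 without (log2 fold change -1.70 ± 0.12; adjusted p = 0.000102), and 2 of its 3 probes fell. Lysyl oxidase (Lox) read 11.72 and 11.67 in transfected cells and 13.53 and 13.31 in untransfected cells (log2 fold change -1.73 ± 0.22; adjusted p = 0.00159). The matrix metalloproteinase Mmp2 was at 8.04 and 7.66 with the empty vector and 9.29 and 9.43 without (log2 fold change -1.51 ± 0.17). Each of these genes had tight replicates on both sides, relative to the change. Leaving out any of the 4 arrays left 6 to 10 of the 23 genes called lower.

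Small leucine-rich proteoglycans bind collagen fibrils. Of 8 tested, 5 were called lower and 0 higher, against 11.4% of all genes lower, with a median of -0.82. With median scaling over the probes tested 3 were called lower, with a median of -0.31. Of the 5, 3 were undetected on both empty vector arrays, and with such genes at their bound, or at 0 where there is none, the list's median was -0.14. Prelp, which anchors basement membranes to connective tissue, read 10.00 and 9.59 with the empty vector and 12.16 and 12.05 without (log2 fold change -2.31 ± 0.17; adjusted p = 0.000102). Osteoglycin (Ogn) read 6.24 and 5.09 in transfected cells and 7.71 and 7.82 in untransfected cells (log2 fold change -2.10 ± 0.37). On empty vector replicate 2 Ogn lay below the lowest level detected there, 6.69, so its fold includes a background level. Osteomodulin (Omd) was undetected with the empty vector and fell at least 2.42-fold. Podn read 4.97 and 5.15 with the empty vector, undetected, and 5.92 and 5.97 without, and Decorin (Dcn) was undetected on all 4 arrays, so both were called without a fold that can be read. This list was drawn up after values had been seen, and Prelp is also on the matrix list.

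Other mesenchymal genes went the same way. Of 7 fibroblast and mesenchyme markers tested, 4 fell and 0 rose, against 11.4% of all genes fallen. Fewer were called lower when any 1 of the 4 arrays was left out. The list's median was -0.73 (-0.24 with median scaling over the probes tested, -0.21 with undetected genes at their bound). Col3a1 read 6.68 and 5.71 with the empty vector and 8.05 and 8.04 without (log2 fold change -1.85 ± 0.29; adjusted p = 0.00347), and Col1a1 fell by a similar amount (log2 fold change -1.83 ± 0.43; adjusted p = 0.0196). Both collagens were detected on 1 of the 2 empty vector arrays, and Col1a1 was not called without empty vector replicate 2 or without either untransfected array. A dimmer probe of Col3a1, at -0.005, was not called. The growth factor receptor Pdgfrb fell (log2 fold change -0.73 ± 0.16), and Pdgfra, Acta2 and Col1a2 were not called. Itga11, the collagen receptor integrin alpha 11, read 6.38 and 5.90 in transfected cells and 8.35 and 8.56 in untransfected cells (log2 fold change -2.31 ± 0.24; adjusted p = 0.000586). Its level on empty vector replicate 2 was below the lowest detected there, 6.69.

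Of 12 genes of the TGF-beta and BMP pathway tested, 3 fell and 0 rose, against 11.4% of all genes fallen. The list's median was -0.38. Tgfbi, a matrix protein named for its induction by TGF-beta, fell at least 1.51-fold and was undetected with the empty vector (limma adjusted p = 0.000102). Its other probe, at -0.13, was not called. The signal transducer Smad3 (log2 fold change -0.68 ± 0.14) and the BMP antagonist Grem1 (log2 fold change -0.57 ± 0.15) were also lower. The ligands Tgfb1 and Tgfb2 and the receptors Tgfbr1 and Tgfbr2 were not called, and neither were the BMP targets Id2 and Id3.

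Most lists with few called genes lost calls when 1 of the 4 arrays was left out. The number called lower was then 3 to 6 of 18 NRF2 antioxidant genes, 2 to 7 of 21 hypoxia and glycolysis genes, 1 to 3 of 14 antigen presentation genes, 1 to 3 of 12 TGF-beta and BMP genes and 2 to 5 of 15 REST targets, against 6, 6, 4, 3 and 4 as reported.

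**Figure D4:**
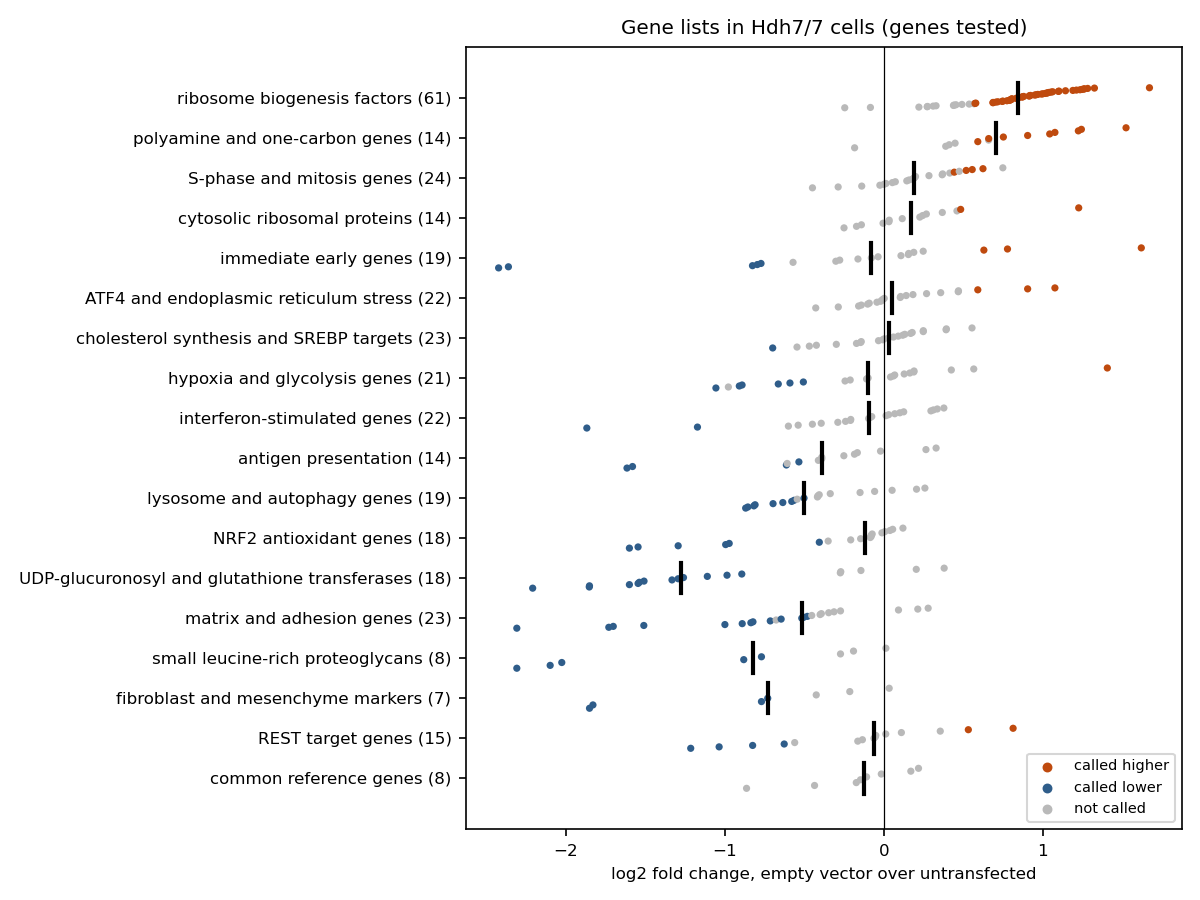
Log2 fold change, empty vector over untransfected in Hdh7/7 cells, of each gene tested in 18 gene lists (points, coloured by call) with the list's median (vertical bar); the number of genes tested is in parentheses. Ribosome biogenesis factors had 48 of 61 genes called higher with a median of 0.84, and UDP-glucuronosyl and glutathione transferases had 13 of 18 called lower with a median of -1.28.

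Conjugating enzymes had the lowest median of the lists with more than 1 gene tested. UDP-glucuronosyltransferases and glutathione transferases attach sugar or glutathione to drugs and lipid peroxides so that they can be exported. Of 18 tested, 13 fell and 0 rose, with a median of -1.28 (-1.18 with undetected genes at their bound), against 11.4% fallen and a median of -0.05 over all genes, on a list drawn up after values had been seen. Mgst2, a microsomal glutathione transferase, read 7.62 and 6.84 with the empty vector and 9.24 and 9.65 without (log2 fold change -2.21 ± 0.26; adjusted p = 0.00111). Ugt1a7c read 7.95 and 7.74 in transfected cells and 9.58 and 9.82 in untransfected cells (log2 fold change -1.85 ± 0.18; adjusted p = 0.000522), and all 4 of its probes fell. Genes of the Ugt1a cluster share their last exons, so these probes may not tell them apart. Gsta1 (log2 fold change -1.85 ± 0.37) and Mgst1 (log2 fold change -1.60 ± 0.35) fell with 1 of 2 empty vector arrays detecting each, and Gsta1 has a near-identical paralogue in Gsta2 (-1.51). The pi class enzyme Gstp1 was not called. Leaving out any of the 4 arrays left 7 to 13 of the 18 called lower.

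The transcription factor NRF2 induces several of these enzymes together with antioxidant genes. On a list of 18 NRF2 antioxidant genes 6 fell and none was called higher, against 11.4% of all genes fallen. The list's median was -0.11. The 4 largest were Mgst1, Gstm1 (9.23 and 8.70 with the empty vector, 10.41 and 10.61 without; log2 fold change -1.55 ± 0.25), Gsta4 (log2 fold change -1.29 ± 0.23) and the quinone reductase Nqo1 (10.21 and 9.79 with the empty vector, 11.00 and 10.99 without; log2 fold change -0.99 ± 0.17). The glutathione synthesis genes Gclc and Gclm, the thioredoxin reductase Txnrd1 and the cystine transporter Slc7a11, also NRF2 targets, were not called. The transferases Mgst1, Gstm1 and Gsta4 are on both lists.

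Lysosomal genes fell in number but by small amounts. For 19 lysosome and autophagy genes the count was 9 lower and 0 higher, with a median of -0.50. Over all genes 11.4% fell and the median was -0.05. Atp6v0d1, a subunit of the proton pump, read 10.79 and 10.77 with the empty vector and 11.57 and 11.72 without (log2 fold change -0.87 ± 0.12; adjusted p = 0.00228), and its 3 probes all fell. The hydrolases Hexa (log2 fold change -0.82 ± 0.14) and Lipa (log2 fold change -0.81 ± 0.14) also fell, and their replicates lay close together. Cathepsin Z (Ctsz) was called lower near background, where 1 untransfected array and no empty vector array detected it, so no fold is read. Between 3 and 6 of the 19 genes were called lower when any of the 4 arrays was left out.

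Glucose and oxygen genes were mixed. Hk2, the hexokinase that starts glycolysis, read 11.29 and 11.62 with the empty vector and 10.13 and 9.97 without (log2 fold change 1.41 ± 0.14; adjusted p = 0.000532), the 1 risen gene of 21 on the hypoxia and glycolysis list. On the same list 6 genes fell, among them the hypoxia-induced genes Ndrg1 (log2 fold change -1.06 ± 0.20) and Egln3 (at least 1.03-fold) and the glucose transporter Slc2a3 (log2 fold change -0.89 ± 0.14), and the median was -0.10. Over all genes 6.65% rose and 11.4% fell. The enzymes Gapdh, Pkm, Aldoa and Ldha were not called. Of 20 oxidative phosphorylation genes, 1 was called lower and 0 higher, Uqcrfs1, which was undetected with the empty vector (5.87 and 5.38, against 6.34 and 6.32 without) and gives no fold that can be read. Of 23 cholesterol synthesis and SREBP target genes, 1 fell (the desaturase Scd1, log2 fold change -0.70 ± 0.15) and 0 rose. Neither Scd1 nor Uqcrfs1 was called without empty vector replicate 2 or without untransfected replicate 1. Uqcrfs1 was also not called without untransfected replicate 2.

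Of 8 heat shock genes tested, 2 rose and 3 fell, against 6.65% and 11.4% of all genes. Neither rise was called without empty vector replicate 2 or without untransfected replicate 2. The mitochondrial chaperonin Hspd1 (log2 fold change 0.92 ± 0.21) and Hsph1, a co-chaperone of Hsp70 (0.59), rose, and the small heat shock genes Cryab (11.35 and 11.26 with the empty vector, 12.35 and 12.48 without; log2 fold change -1.11 ± 0.18) and Hspb8 (log2 fold change -0.89 ± 0.12) and the cochaperone Dnajb4 (log2 fold change -0.78 ± 0.17) fell. Of 13 p53 targets, 2 rose (Plk2, log2 fold change 0.78 ± 0.14, and the exonuclease Aen, log2 fold change 0.78 ± 0.20) and 1 fell (Perp, log2 fold change -0.83 ± 0.22). Plk2, Aen and Perp were not called without untransfected replicate 2. Perp was also not called without empty vector replicate 1 or untransfected replicate 1. The cell cycle inhibitor Cdkn1a and Mdm2 were not called. Of 15 apoptosis genes, 1 fell (the BH3-only gene Bcl2l11, log2 fold change -1.19 ± 0.33) and 0 rose. Bcl2l11 averaged 5.90 with the empty vector, below the lowest level detected on replicate 2, 6.69. Its call was lost without empty vector replicate 2 or either untransfected array. Of 7 histone genes, Macroh2a1 rose (log2 fold change 0.44 ± 0.13) and H3f3b fell (log2 fold change -0.55 ± 0.16). Macroh2a1 was not called when any of the 4 arrays was left out. H3f3b was not called without either empty vector array or without untransfected replicate 1. Limma called 0 of 8 common reference genes, 1 of them at an unadjusted p under 0.05, and their median was -0.13. The reference gene with the largest change was Eef1a1 (log2 fold change -0.86 ± 0.35; adjusted p = 0.122).

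The interferon response differed between the lines. With the empty vector 205 genes rose in Hdh109/109 cells and 78 fell, 2.42% and 0.919% of those tested and 3.33% in all (2.91% of probes). Of 22 interferon-stimulated genes tested, 11 were undetected on all 4 Hdh7/7 arrays, and 0 rose and 2 fell in Hdh7/7 cells, with a median of -0.09 (0.30 with median scaling over the probes tested, when 2 rose). Of the same 22, 20 rose in Hdh109/109 cells and 0 fell, with a median of 2.07. The difference between the lines itself was called for 19 of the 22, all with a lower response in Hdh7/7 cells, where 8.98% of all genes had such a call. The detection filter counted all 12 arrays, so a gene could pass it through its rise in Hdh109/109 cells. Without Hdh7/7 empty vector replicate 2 the difference was again called for 19, and without Hdh109/109 untransfected replicate 2, another array with high background, for 17.

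Rsad2, which encodes the antiviral protein viperin, read 4.81 and 4.96 with the empty vector and 4.54 and 4.64 without in Hdh7/7 cells, undetected on all 4 arrays. In Hdh109/109 cells it read 11.43 and 11.83 with the empty vector and 5.57 and 4.82 without. Its response in Hdh7/7 cells was thus not measurable, while both transfected Hdh109/109 arrays lay far above the untransfected ones (at least 51.4-fold; adjusted p of the line difference = 4.6e-05). The GTPase gene Mx2 read 4.87 and 4.71 with the empty vector and 4.74 and 4.78 without in Hdh7/7 cells, and 9.05 and 9.58 and 4.68 and 4.62 in those 2 states in Hdh109/109 cells. The chemokine Cxcl10 read 5.98 and 4.92 with the empty vector and 5.06 and 5.25 without in Hdh7/7 cells, and 12.03 and 12.33 and 7.09 and 7.17 in those 2 states in Hdh109/109 cells. Ifit3, which binds viral RNA complexes, read 5.29 and 4.76 with the empty vector and 5.38 and 5.87 without in Hdh7/7 cells, undetected on all 4 arrays, and 10.19 and 10.93 and 5.91 and 5.38 in those 2 states in Hdh109/109 cells. None of the 4 genes was called in Hdh7/7 cells, where Cxcl10 was detected on 1 empty vector array.

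The promoters of 3 of these genes are printed because they hold the core of the interferon-stimulated response element, in capitals, which interferon-activated factors bind. The windows lie at chr12:26456453-26456702 (- strand) for Rsad2, chr19:34583279-34583528 (+ strand) for Ifit3 and chr5:92348890-92349139 (- strand) for Cxcl10.
Rsad2: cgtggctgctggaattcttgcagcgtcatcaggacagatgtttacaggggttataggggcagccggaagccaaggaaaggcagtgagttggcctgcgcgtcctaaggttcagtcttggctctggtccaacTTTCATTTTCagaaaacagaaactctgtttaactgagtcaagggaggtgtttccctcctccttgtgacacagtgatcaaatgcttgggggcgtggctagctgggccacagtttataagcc
Ifit3: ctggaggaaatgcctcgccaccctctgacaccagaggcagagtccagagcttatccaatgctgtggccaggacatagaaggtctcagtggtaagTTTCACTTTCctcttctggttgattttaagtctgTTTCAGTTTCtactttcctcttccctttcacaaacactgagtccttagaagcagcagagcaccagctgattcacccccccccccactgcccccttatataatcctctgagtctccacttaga
Cxcl10: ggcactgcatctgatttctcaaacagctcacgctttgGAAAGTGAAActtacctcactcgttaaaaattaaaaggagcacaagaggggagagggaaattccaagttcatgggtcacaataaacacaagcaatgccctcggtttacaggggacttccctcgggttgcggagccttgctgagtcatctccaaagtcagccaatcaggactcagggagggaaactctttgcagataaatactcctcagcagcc
The letters searched on both strands were GAAANNGAAA. They occurred in 21.7% of 23 windows of the interferon-stimulated genes, in 2.70% of windows of genes that rose in Hdh7/7 cells and in 2.47% of windows of all genes tested.

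Interferon-inducible GTPases defend cells against intracellular pathogens. Of 6 tested, 3 were undetected on all 4 Hdh7/7 arrays, so they passed the filter through arrays of other groups. In Hdh7/7 cells 1 fell and 0 rose, against 11.4% and 6.65% of all genes, with a median of -0.24. That median was 0 with undetected genes at their bound and 0.23 with median scaling over the probes tested. All 6 rose in Hdh109/109 cells (median 3.74), where 2.42% of all genes rose. Igtp, an immunity-related GTPase, fell at least 1.12-fold in Hdh7/7 cells, with 5.64 and 5.21 with the empty vector and 6.40 and 6.58 without, and rose at least 14-fold in Hdh109/109 cells (adjusted p of the line difference = 4.6e-05). Irgm2 was undetected on all 4 Hdh7/7 arrays and rose at least 14.9-fold in Hdh109/109 cells. The call of Igtp in Hdh7/7 cells was lost without empty vector replicate 2. Uba7, the enzyme that activates the ubiquitin-like ISG15, was lower with the empty vector in Hdh7/7 cells, with 5.43 and 4.70, undetected, against 6.28 and 6.04 without, and no fold is read from it. Its difference between the lines was called (adjusted p = 0.000181). Lgals3bp, a secreted glycoprotein that binds galectin 3, read 6.14 and 5.30 with the empty vector and 7.04 and 7.33 without in Hdh7/7 cells (log2 fold change -1.47 ± 0.27) and differed by -4.63. Its level on empty vector replicate 2 was below the lowest detected there, 6.69.

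The interferon-stimulated genes that fell in Hdh7/7 cells were Samd9l and Parp9. Samd9l, an interferon-induced restriction factor, read 5.39 and 4.93 with the empty vector and 7.17 and 6.89 without, a fall of at least 1.63-fold (adjusted p = 0.0015). Parp9, an ADP-ribosyltransferase family member, read 6.66 and 5.75 in transfected cells, detected on 1 array, and 7.40 and 7.35 in untransfected cells (log2 fold change -1.17 ± 0.27). Its dimmer probe, at -0.05, was not called. Among 16 interferon signalling genes, 2 were undetected on all 4 Hdh7/7 arrays. In Hdh7/7 cells 2 genes of this list fell and 0 rose, against 11.4% of all genes fallen. They were the factor Irf9 (log2 fold change -0.96 ± 0.23) and Stat3 (log2 fold change -0.80 ± 0.19). Neither was called without empty vector replicate 2, and Parp9 was also not called without it. Of these 16, 6 rose in Hdh109/109 cells, Irf9 among them, against 2.42% of all genes. The lines differed for 8, all with a lower response in Hdh7/7 cells, against 8.98% of all genes. Both counts were lower without Hdh109/109 untransfected replicate 2.

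Sensors of nucleic acids act upstream of interferon, and antigen presentation lies downstream. Of 10 nucleic acid sensors and adaptors, the DNA sensor Cgas rose in Hdh7/7 cells (11.06 and 10.71 with the empty vector, 10.29 and 10.41 without; log2 fold change 0.54 ± 0.15; adjusted p = 0.0373), and 1 of its 2 probes was called. The call was lost without empty vector replicate 1 or either untransfected array. The other 9, among them Sting1, Mavs and Tbk1, were not called. Over all genes 6.65% rose. Of the 10, 4 were undetected on all 4 Hdh7/7 arrays and passed the filter through arrays of other groups. The other line had 4 of the 10 called higher, Cgas included, against 2.42% of all genes, and fewer without Hdh109/109 untransfected replicate 2. The line difference for Cgas was not called (-0.45, limma adjusted p = 0.189, 95% interval -0.92 to 0.03). Of 14 antigen presentation genes, 4 fell and 0 rose in Hdh7/7 cells, against 11.4% of all genes fallen. The list's median was -0.39 (-0.09 with undetected genes at their bound). H2-T23, a non-classical class I gene, read 7.97 and 7.23 with the empty vector and 9.19 and 9.24 without (log2 fold change -1.62 ± 0.21; adjusted p = 0.00165), and 1 of its 2 probes fell. Tap2, a subunit of the peptide transporter, read 6.26 and 4.91 in transfected cells and 7.16 and 7.17 in untransfected cells (log2 fold change -1.58 ± 0.34), with detection on 1 empty vector array. Psme1 fell by less (log2 fold change -0.53 ± 0.15). Tapbpl was called lower but was undetected on both empty vector arrays and on 1 untransfected array, so no fold is read, and neither gene was called without empty vector replicate 2. The same list had 10 of the 14 called higher in Hdh109/109 cells, against 2.42% of all genes, and fewer without untransfected replicate 2. The lines differed for 11, all with a lower response in Hdh7/7 cells, against 8.98% of all genes. Of the 14, 4 were undetected on all 4 Hdh7/7 arrays and passed the filter through other groups, so their response there was not measurable.

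Of 10 chemokines and cytokines tested in Hdh7/7 cells, Ccl5 was called higher and Cx3cl1, a membrane-bound chemokine of neurons and endothelium, fell. Over all genes 6.65% rose and 11.4% fell. Cx3cl1 read 10.33 and 10.22 with the empty vector and 11.56 and 11.33 without (log2 fold change -1.17 ± 0.14; adjusted p = 0.00107). Ccl5 was detected on 1 of the 4 arrays, so no fold is read from it. Of 14 NF-kB pathway genes, Relb was called lower and 0 higher. Relb was undetected on both empty vector arrays (5.72 and 5.34, against 6.16 and 6.12 without), so no fold is read, and it was not called without empty vector replicate 2 or either untransfected array. In Hdh109/109 cells 5 of the 10 chemokines and cytokines and 2 of the 14 NF-kB genes rose, and 0 fell, against 2.42% of all genes risen. On all 4 Hdh7/7 arrays 3 of the 10 and 5 of the 14 were undetected, so their response there was not measurable.

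**Figure D5:**
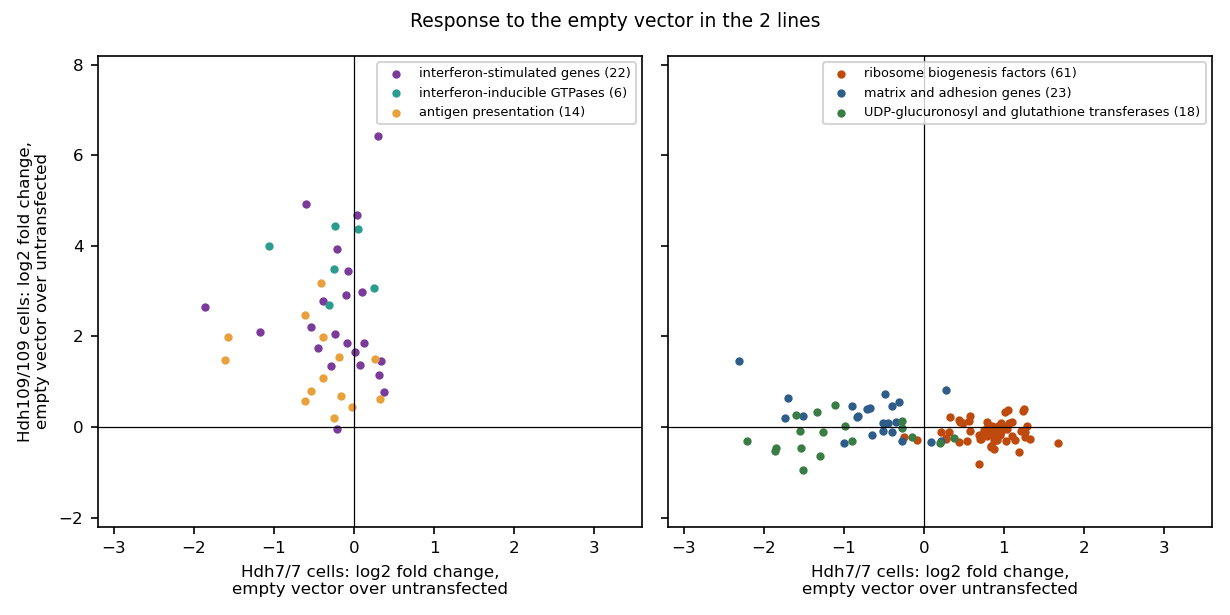
Log2 fold change, empty vector over untransfected, of list members in Hdh7/7 cells (x axis) and in Hdh109/109 cells (y axis); each point is a gene and the number of genes tested is in the legends. Interferon genes spread along the Hdh109/109 axis (left) and ribosome biogenesis, matrix and conjugating enzyme genes along the Hdh7/7 axis (right).

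The difference between the lines was called for 1200 of 8487 genes, 14.1%, of which 438 (5.16%, and 4.99% of probes) responded higher and 762 (8.98%) lower in Hdh7/7 cells. Without Hdh7/7 empty vector replicate 2 these counts were 284 and 498, and without Hdh109/109 untransfected replicate 2 they were 193 and 392. The 2 responses shared no arrays, but the 2 arrays with high background enter the difference with the same sign. Over probes undetected on all arrays, Hdh7/7 empty vector replicate 2 had a rank correlation of 0.78 with Hdh109/109 untransfected replicate 2. With its own partner the value was 0.53. These 2 arrays were left out only 1 at a time, and the part of their background in the difference was not tested. Of the 564 genes that rose in Hdh7/7 cells, 318 had a higher response there than in Hdh109/109 cells, and of the 964 that fell, 521 had a lower response. These genes were selected by the same Hdh7/7 fold changes that enter the difference, so both counts are descriptions. Of the 1528 genes called in Hdh7/7 cells, 30 were called in the same direction in Hdh109/109 cells and 51 in the opposite direction. The 30 shared genes are 1.96% of the genes called in Hdh7/7 cells and 10.6% of the 283 called in Hdh109/109 cells.

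The ribosome biogenesis, polyamine and conjugating enzyme lists were drawn up after values had been seen. Their Hdh7/7 fold changes enter the difference between the lines, so their counts for it are descriptions. Of the 61 ribosome biogenesis genes, 0 were called in Hdh109/109 cells by limma (8 at an unadjusted p under 0.05), with a median of -0.11. For 41 of the 61 the difference between the lines was called, all higher in Hdh7/7 cells, against 5.16% of all genes. That count was 35 without Hdh7/7 empty vector replicate 2 and 30 without Hdh109/109 untransfected replicate 2. Rrp12 read 9.22 and 9.30 with the empty vector and 9.73 and 9.51 without in Hdh109/109 cells, and its responses differed by 2.03 (adjusted p = 0.000208). Of the 14 polyamine and one-carbon genes, 0 were called in Hdh109/109 cells by limma (3 at an unadjusted p under 0.05). The lines differed for 8, all higher in Hdh7/7 cells, against the same 5.16%. Of the 23 matrix genes, 12 had a lower response in Hdh7/7 cells, against 8.98% of all genes. In Hdh109/109 cells 4 of them rose and 0 fell, against 2.42% and 0.919% of all genes. Without Hdh7/7 empty vector replicate 2 that count of 12 was 8, and without Hdh109/109 untransfected replicate 2 it was 6. Prelp differed between the lines (adjusted p = 4.6e-05) and rose at least 1.48-fold in Hdh109/109 cells. Of the 18 conjugating enzymes 9 had a lower response in Hdh7/7 cells, against the same 8.98%. In Hdh109/109 cells 1 of them fell, against 0.919% of all genes. The count of 9 was 5 without Hdh7/7 empty vector replicate 2.

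Some genes moved in opposite directions in the 2 lines. Fos fell in Hdh7/7 cells and rose in Hdh109/109 cells, where it read 9.14 and 8.58 with the empty vector and 6.77 and 6.75 without (2.10 in log2; adjusted p = 0.000323; difference -4.46, adjusted p = 4.6e-05). Egr1 did the same, with 13.15 and 13.25 with the empty vector and 11.56 and 11.65 without in Hdh109/109 cells (difference -2.42; adjusted p = 7.95e-05). S100a7a, which rose in Hdh7/7 cells, fell at least 2.28-fold in Hdh109/109 cells (adjusted p of the line difference = 4.6e-05). Ankrd1, a muscle ankyrin repeat protein induced by stretch and YAP, rose in both lines (log2 fold change 1.40 ± 0.15 in Hdh7/7 cells, 0.75 in Hdh109/109 cells). Its difference was not called (0.64; 95% interval 0.18 to 1.11). Stmn2, a neuronal microtubule regulator, was called lower in both lines, by -0.94 in log2 in Hdh109/109 cells. In Hdh7/7 cells it was undetected with the empty vector (5.22 and 5.34, against 6.28 and 5.93 without), so no fold or difference is read there. Its other probe, at 0.17 in Hdh7/7 cells, was not called.

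Some REST targets were called with the empty vector. Of 15 tested in Hdh7/7 cells, 2 rose and 4 fell, against 6.65% and 11.4% of all genes. The list's median was -0.06, or 0 with undetected genes at their bound. On all 4 arrays 4 of the 15 were undetected, and 2 of the 4 fallen genes were undetected with the empty vector. Ppm1e, a phosphatase, fell at least 1.49-fold, with 5.77 and 5.61 with the empty vector and 6.92 and 6.88 without (adjusted p = 0.000686). The small GTPase gene Diras1 read 6.38 and 5.79 in transfected cells and 7.09 and 7.16 in untransfected cells (log2 fold change -1.04 ± 0.18; adjusted p = 0.00618). Its level on empty vector replicate 2 was below the lowest detected there, 6.69. DNRest arrays of the line read 8.60 and 8.48 for Diras1. Ppm1e read 6.64 and 6.61 with DNRest. Bex1 rose (8.64 and 8.55 with the empty vector, 7.67 and 7.89 without; log2 fold change 0.81 ± 0.17), and both of its probes were called. Limma called 0 of 16 genes for REST corepressors, with an unadjusted p under 0.05 for 1, and the largest change was in Rcor3 (log2 fold change -0.36 ± 0.14; adjusted p = 0.114).

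The DNRest arrays of Hdh7/7 cells, which are also transfected and had median signals of 71.1 and 70.2, give another set of levels without high background. They and the empty vector arrays share the untransfected controls, so the values are given side by side. Rrp12 read 10.75 and 10.64 with DNRest, against 10.83 and 10.77 with the empty vector. Srm read 9.88 and 9.92 with DNRest and 9.45 and 9.61 with the empty vector. Col6a1 read 9.63 and 9.59 with DNRest and 9.81 and 9.89 with the empty vector, and Lox read 11.56 and 11.37 and 11.72 and 11.67 in those 2 states. Tent5a, uneven between the empty vector arrays, read 5.85 and 5.85 with DNRest, and Egr2 read 6.99 and 6.80. These 6 genes were picked among those called with the empty vector. For each, the DNRest arrays lay on the same side of the shared untransfected arrays as the empty vector arrays. Diras1, given above, lay on the other side with DNRest.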

How the data were processed

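Total RNA of 12 samples of 2 immortalised mouse striatal lines was DNase-treated, amplified and labelled, per the labels' protocols. The deposited table lists 44505 probes, each with a bead intensity on a linear scale and its detection p-value on every array, per the file headers. The submitters' processing notes name limma alone. No label or header names the scanner software. The deposited series matrix gives a log2 value per row and array, and its rows did not match their identifiers (rank correlation with the signal 0.017 to 0.034), so they served only for counts over unnamed rows.

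Signals were background-corrected with nec (limma 3.58.1, R 4.3.3), with background inferred from detection p-values and 16 as offset, and quantile normalized. Probes with detection p under 0.01 on at least 2 of 12 arrays were tested. Limma fitted 6 group means to the 12 arrays together (6 residual degrees of freedom, eBayes, two-sided tests). Groups came from the titles. The number of arrays limits the precision. A fold against a group in which every array left the probe undetected is given as at least N-fold, against the higher of each array's lowest detected signal and the probe's own signal. Where that bound is under 1 or both groups were undetected, the call is given with no fold. Of the probes, 28471 had 1 gene symbol in the platform annotation, 10 several and 16024 none. The fit was tested on simulated data.

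Named genes were up to 12 called genes at either end of the fold changes, with groups not overlapping and both arrays of a group detected, leaving out clone and predicted symbols; up to 4 called members of each list, or its largest change where none was called; up to 8 with the largest called line difference under the same detection rule; and Htt and Rest. Some further list members are named with values seen. The members, the rule and 32 lists (651 entries) were chosen with earlier results of these data known, and another 6 lists were drawn up after values had been seen. No set test was run. The alternatives tried were other scaling, background, filters, array weights, a replicate block, a fold minimum, the compared arrays alone and leaving out each array.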

Additional observations from a re-analysis of the deposited data

Results flagged for a closer look

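A difference in response between the lines, tested in limma as the log2 fold change with the empty vector in Hdh7/7 cells minus that in Hdh109/109 cells, was called for 1852 of 15224 probes. Among the 119 named genes it was called for 84, at adjusted p-values of 4.6e-05 to 0.0454, higher in Hdh7/7 cells for 24 and lower for 60. Over all genes 14.1% had such a call. The named genes were picked largely by their Hdh7/7 fold changes, which enter the difference, or by the difference itself. Their count is therefore a description. Values are log2 differences, with standard errors of 0.16 to 0.59. Some ribosome assembly and ribosomal protein genes had higher responses in Hdh7/7 cells, with Rrp12 2.03, Rrp9 1.60, Ppan 1.25, Nop2 1.47 and Rplp0 0.71. Over the whole list of 14 cytosolic ribosomal protein genes the difference was called for 3, and for 0 without Hdh109/109 untransfected replicate 2 (limma, with 3 at an unadjusted p under 0.05). Polyamine, one-carbon and serine synthesis genes had higher responses there too, with Srm 1.52, Slc19a1 1.01, Shmt1 0.997, Shmt2 1.52, Psat1 1.14 and Phgdh 1.11. The other genes with higher responses in Hdh7/7 cells were Klra22 1.79, Dancr 1.72, Tfrc 1.47, Hk2 1.44, Fosl1 1.41, Upp1 1.34, Hspd1 1.07, Rassf1 0.88 and Rrm2 0.87. Interferon-stimulated genes and interferon factors had lower responses in Hdh7/7 cells, with Lgals3bp -4.63, Parp9 -3.27, Irf9 -3.78 and Stat3 -0.99.

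Antigen presentation genes and chemokines were lower as well, with Tap2 -3.56, H2-T23 -3.10, Psme1 -1.32 and Cx3cl1 -1.71. Immediate early genes differed, with Fos -4.46 and Egr1 -2.42. Matrix, proteoglycan and mesenchymal genes had lower responses in Hdh7/7 cells, with Col6a1 -2.35, Lox -1.92, Mmp2 -1.75, Col3a1 -3.09, Ogn -2.96, Spon2 -2.73 and Smad3 -0.90. Conjugating and lysosomal enzymes followed with lower responses, with Mgst2 -1.89, Gstm1 -1.45, Cbr2 -2.83, Lipa -0.77 and Atp6v0d1 -1.12. Clock, hypoxia and contractile genes with lower responses were Dbp -1.01, Per3 -1.03, Bhlhe40 -0.93, Ndrg1 -1.002, Slc2a3 -0.93, Mylk -2.56 and Synpo -1.30. The remaining genes had lower responses in Hdh7/7 cells, with Tent5a -3.84, Slc40a1 -3.15, Slc1a3 -1.79, Diras1 -1.06, Flt1 -0.98 and Hspb8 -0.63.

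In the other 29 of the 84 genes at least 1 of the 4 groups was undetected on both arrays. Their fitted differences include a background level and give a direction and a call but no size. The lower ones were Rsad2 -6.14, Ifit3 -5.52, Igtp -5.06, Cxcl10 -4.75, Irgm2 -4.67, Uba7 -4.67, Mx2 -4.64, Samd9l -4.53, Prelp -3.76, Egr2 -3.47, Calml4 -3.18, Trp63 -3.06, Ccl5 -3.06, Itga11 -2.78, Omd -2.53, Tgfbi -2.26, Rcan2 -2.15, Mgst1 -1.87, Prom1 -1.69, Dcn -1.47, Egln3 -1.45, Ugt1a7c -1.38, Tapbpl -1.19, Ppm1e -0.92 and Podn -0.91, and the higher ones S100a7a 3.77, Rpl29 1.44, Dusp4 1.39 and Rps19 1.27. No group holds more than 2 arrays, so for a given gene it cannot be told which of 2 differing arrays is the outlying one.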

How the results depend on the processing

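All counts are of called probes in limma. In Hdh7/7 cells the count of 2404 was 1 with the compared arrays alone and 634 with a 2-fold minimum, and leaving out 1 array gave 728 to 3853. Without empty vector replicate 2 it was 1159 and without replicate 1, which leaves the array with high background, 3853; without untransfected replicate 1 it was 728 and without replicate 2 it was 948. Array weights gave 1684, no filter 1968, the series matrix 1695 and no background correction 2909. Median scaling over all probes gave 52 higher and 3201 lower, a filter for detection on all 12 arrays 1190 and 1054, median scaling over the probes tested, added after seeing the data, 1354 and 1197, and a 2-fold minimum 172 and 462, against 945 and 1459 as reported. The cause of these shifts was not tested.

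For Hdh109/109 cells the count of 443 was 791 without background correction, 709 with detection on all 12 arrays, 230 with the compared arrays alone, 236 with array weights and 222 with a 2-fold minimum, and 176 to 1114 without 1 array. The difference between the lines, 1852, was 699 with the compared arrays alone, 1053 with array weights and 1147 with a 2-fold minimum, and 675 to 3479 without 1 array. Median scaling over all probes gave 290 higher and 30 lower in Hdh109/109 cells, and 41 higher and 2519 lower for the difference.

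The labels give groups the same replicate numbers but do not say what the numbers share. Deviations of the empty vector and untransfected pairs in Hdh7/7 cells correlated at r = -0.05. Hdh7/7 untransfected with Hdh109/109 empty vector gave r = -0.45, and Hdh7/7 empty vector with Hdh109/109 untransfected gave r = 0.36. With 1 deviation per group, these values cannot show whether arrays were paired. With the replicate block 2022 probes were called in Hdh7/7 cells, 337 in Hdh109/109 cells and 1440 for the difference.

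Of 110 named genes called in Hdh7/7 cells, 3 changed sign, all with median scaling over all probes: Rrm2 (-0.0050), Aurka (-0.033) and Macroh2a1 (-0.091). With it 18 others lost their call, with array weights 15, without a filter 13, with the block 8 and without background correction 3. All 110 lost it with the compared arrays alone, and 15 to 37 did without 1 array. Probes below the lowest detected log2 level, 6.69 on empty vector replicate 2, have only a bound.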

Other observations

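Of the circadian clock output genes, 4 were lower with the empty vector in Hdh7/7 cells, on a list chosen after its values were seen. Of the 12 tested, 0 rose, with a median of -0.36 (-0.09 without empty vector replicate 2). Over all genes 11.4% fell. Fewer of the 12 were called lower when either untransfected array was left out. Dbp, a PAR bZIP factor driven by the clock, read 9.36 and 8.98 with the empty vector and 10.68 and 10.93 in untransfected cells (log2 fold change -1.63 ± 0.17; limma adjusted p = 0.000623). Per3, a period gene, read 7.77 and 7.59 in transfected cells and 8.68 and 8.74 in untransfected cells (log2 fold change -1.03 ± 0.15; adjusted p = 0.00244). The PAR bZIP factor Tef (log2 fold change -0.77 ± 0.15) and the repressor Bhlhe40 (log2 fold change -0.66 ± 0.15) fell as well, and Arntl, Clock, Nr1d1 and Per2 were not called. The arrays of both groups were separate for each of the 4 fallen genes. With DNRest in Hdh7/7 cells Dbp read 9.26 and 9.35 and Per3 7.75 and 7.76. Limma called 0 of the 12 in Hdh109/109 cells (3 at an unadjusted p under 0.05), with Dbp at -0.62 (adjusted p = 0.0867).

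Contractile genes were mostly not called, on a list also chosen after its values were seen. Of 21 tested, 1 rose and 3 fell, against 6.65% and 11.4% of all genes, with a median of -0.20. Besides Mylk, the fallen genes were Synpo, an actin bundling protein of stress fibres, which read 11.89 and 11.77 with the empty vector and 13.25 and 13.11 without (log2 fold change -1.35 ± 0.13; adjusted p = 0.000362), and Csrp1, a LIM protein (log2 fold change -0.47 ± 0.13). Csrp1 was not called when any of the 4 arrays was left out. Ankrd1 rose, with 8.39 and 8.36 in transfected cells and 6.87 and 7.08 in untransfected cells (log2 fold change 1.40 ± 0.15; adjusted p = 0.000686). The smooth muscle actin Acta2, transgelin (Tagln), calponins and tropomyosins were not called.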
